A study of Mus musculus with 2 samples.

Results

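Ventral interneurons of the embryonic hindbrain and spinal cord are sorted into the classes V0, V1, V2 and V3 by the transcription factors they begin to express as they leave the cell cycle. The 9 genes described here are such factors: the even-skipped homeobox genes Evx1 and Evx2 for V0, the engrailed gene En1 for V1, the visual system homeobox gene Vsx1 for V2, the zinc finger genes Gata2 and Gata3 with the basic helix-loop-helix genes Tal1 and Tal2 for the V2b subclass, and the bHLH-PAS gene Sim1 for V3. They were chosen by name, not by measured values, and all 9 were found by gene symbol among 43346 Ensembl genes. RNA was measured in 2 libraries of hindbrain of B6NCrl mice at 12.5 days of embryonic age (e12.5), both of 1 group with no treatment or mutation in the labels. Replicate 1 came from a pool of 120 embryos and replicate 2 from a pool of 88 embryos, each of mixed sex, so neither differences between embryos nor between cell types were resolved. In bulk tissue, fewer cells of a type and less RNA per cell cannot be told apart.

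As background, patterning signals first divide the ventral neural tube into progenitor domains, p0 to p3, marked by factors such as Dbx1 and the Nkx genes, and each domain then gives rise to 1 or more neuron classes. Within the p2 domain, Vsx1 is present as neurons are born, and the GATA and TAL factors then mark the inhibitory V2b cells. TAL proteins bind E-boxes of DNA together with E proteins such as Tcf3, and reach GATA factors through the bridging proteins Lmo and Ldb1. The same GATA and TAL genes also act outside these neurons: Gata2 and Tal1 in blood formation, Gata2 and Gata3 in serotonin neurons and in the inner ear, and Tal2 in the midbrain.

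Sequencing gave 31633169 expected counts for replicate 1 and 29766460 for replicate 2. Levels are given in TPM, transcript abundances scaled for length and to a fixed total per library, which can be compared between genes, and differences between libraries are log2 ratios of counts, replicate 1 over replicate 2. Markers of tissues other than hindbrain differed between the libraries. The 8 skeletal muscle markers summed to 53.98 TPM in replicate 1 against 253.37 TPM in replicate 2, and the 5 inner ear markers to 253.57 against 108.63 TPM. Values of all 9 factors are therefore given for each library.

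Gata3 and Gata2, listed here for V2b, made up most of the summed TPM of the set. These genes also act outside V2b neurons, as given above, so the shares below are of genes, not of neuron classes. Gata3 and Gata2 were the highest of the 9, and the 4 V2b genes together held 80.2% of the summed TPM of the set in replicate 1 and 74.0% in replicate 2. The V0 pair held 12.1% and 15.5%, En1 held 6.37% and 8.69%, and Sim1 held 0.449% and 0.562%. In TPM, the 4 V2b genes summed to 76.80 and 60.59, the V0 pair to 11.55 and 12.68, and all 9 genes to 95.74 and 81.86.

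Gata3, a zinc finger factor of V2b neurons (chr2:9857078-9890034, minus strand), reached 51.65 TPM in replicate 1 and 39.06 TPM in replicate 2, from 2656 and 1751 counts. Its mean of 45.4 ± 8.90 TPM (SD, n = 2) ranked 3874th of 21474 protein-coding genes, within the top 18.0%. Gata2, its paralogue (chr6:88193891-88207032, plus strand), reached 19.35 TPM in replicate 1 and 14.98 TPM in replicate 2, from 1143 and 814 counts, a mean of 17.2 ± 3.09 TPM (SD, n = 2). The ranges of the pair over both libraries did not overlap each other, and each gene was higher in replicate 1.

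Tal1, the bHLH factor that works with GATA proteins (chr4:115056426-115071755, plus strand), had 4.88 TPM in replicate 1 and 5.63 TPM in replicate 2, from 345 and 343 counts. Tal2 (chr4:53779705-53788712, plus strand) had 0.92 TPM in each library, from 50 counts (exact Poisson 95% interval 37.1 to 65.9) and 46 counts (33.7 to 61.4). Tal2 thus lay just under 1 TPM, with a counting interval that includes 1 TPM in both libraries. With TPM taken over Ensembl genes only, its mean was 1.02 TPM. Vsx1, a homeodomain factor of newborn V2 cells (chr2:150680702-150689360, minus strand), was as low, with 0.86 TPM in replicate 1 against 1.02 TPM in replicate 2, from 60 and 66 counts. Vsx1 and Tal2 were the only neighbours in the order of the 9 levels whose ranges over the libraries overlapped.

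Evx1, the V0 homeodomain factor (chr6:52313498-52318378, plus strand), had 9.36 TPM in replicate 1 and 10.11 TPM in replicate 2, from 493 and 454 counts. Evx2, which lies at the HoxD cluster (chr2:74652991-74659557, minus strand), had 2.19 TPM in replicate 1 and 2.57 TPM in replicate 2, from 170 and 184 counts. En1, the V1 factor, which also acts in the isthmus region at the border of midbrain and hindbrain (chr1:120602418-120607992, plus strand), had 6.10 TPM in replicate 1 and 7.11 TPM in replicate 2, from 292 and 314 counts. These V0 and V1 genes stood in the middle of the protein-coding genes, with Evx1 at rank 9513, En1 at 10483 and Evx2 at 12467. Sim1, the V3 factor (chr10:50894754-50989152, plus strand), was the lowest, with 0.43 TPM in replicate 1 against 0.46 TPM in replicate 2. Its 59 and 58 counts gave exact Poisson 95% intervals of 44.9 to 76.1 and 44.0 to 75.0 counts, well above the 0.0218 and 0.0236 TPM that 3 counts represent for this long transcript.

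**Figure D1:**
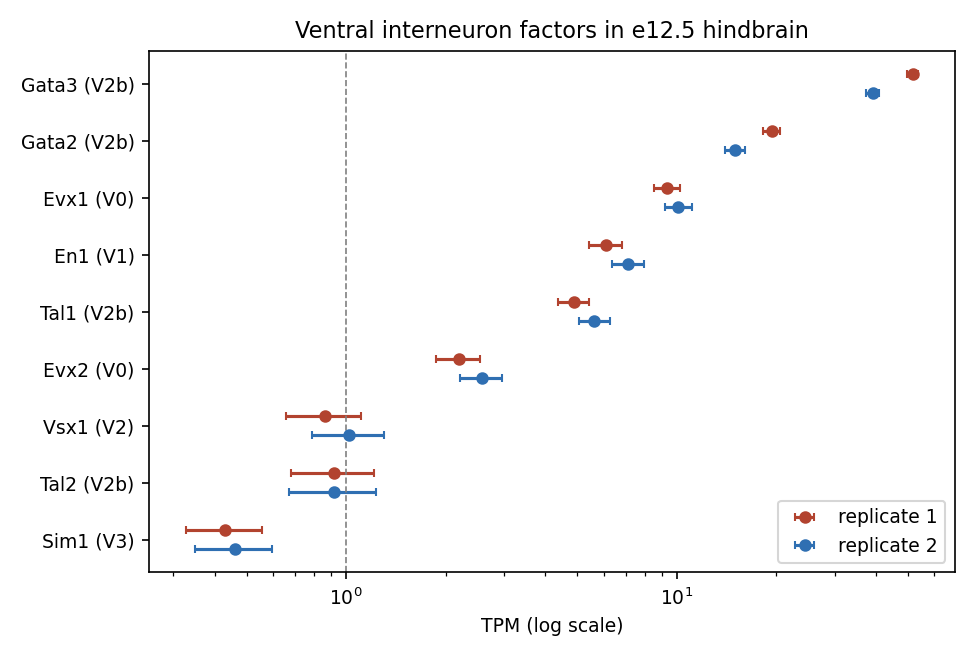
Levels of the 9 factors in TPM on a log axis, with replicate 1 above replicate 2 for each gene; horizontal bars are exact Poisson 95% intervals of the count, which cover counting error only, and the dashed line marks 1 TPM. Gata3 and Gata2 lie to the right, with replicate 1 above replicate 2 in level, and Vsx1, Tal2 and Sim1 lie at or left of the line.

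A gene was called detected where each library gave it 1 TPM or more, and 6 of the 9 factors were: Gata3, Gata2, Evx1, En1, Tal1 and Evx2. Among all Ensembl genes 35.5% passed this rule, and among protein-coding genes 63.0%. The other 3 were not absent, since Vsx1, Tal2 and Sim1 each had 46 or more counts in both libraries. All 9 factors had whole expected counts, to a tolerance of 0.005, against 70.0% of the 19209 genes tested. Fractional values arise where fragments are shared between genes, and none of the 9 had a fractional total.

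The paralogue pairs had unequal levels, and the ratio within a pair changed little between the libraries. Gata3 was 2.67-fold above Gata2 in replicate 1 and 2.61-fold in replicate 2, a log2 ratio of 1.40 ± 0.02 (SD, n = 2). The Gata3 level includes 6.64 TPM in each library on the short noncoding Gata3-204, from 30.84 and 28.44 counts. Gata3-201 alone had 44.27 and 31.45 TPM, so its ratio to all of Gata2 would be lower. Evx1 was 4.27-fold above Evx2 in replicate 1 and 3.93-fold in replicate 2, a log2 ratio of 2.04 ± 0.08. Tal1 was 5.30-fold above Tal2 in replicate 1 and 6.12-fold in replicate 2, a log2 ratio of 2.51 ± 0.15. Each ratio exceeded its spread between libraries, although 2 values allow no permutation test that could pass 0.05.

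Against relatives outside the set, further comparisons went in different directions. En1 was 11.3-fold and 10.2-fold above En2, which had 0.54 TPM in replicate 1 and 0.70 TPM in replicate 2. Sim1 was below Sim2, with log2 ratios of -1.69 and -1.59, Sim2 having 1.39 and 1.38 TPM. Lyl1, the TAL relative best known in blood and vessels, had 3.72 and 3.93 TPM, so Tal1 stood 1.31-fold and 1.43-fold above it. Of the other GATA genes, the erythroid gene Gata1 had 1.24 and 0.79 TPM and Gata6 had 1.12 and 0.83 TPM, while Gata4 and Gata5 rested on 1 to 4 counts a library.

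Between the libraries, Gata3 and Gata2 were the 2 of 9 factors that differed beyond counting error, and both were higher in replicate 1. A two-sided exact binomial test on counts scaled by trimmed mean of M values (TMM) gave a log2 ratio of 0.50 for Gata3, 1.41-fold, with a Benjamini-Hochberg adjusted p of 1e-27. The same exact binomial test gave 0.39 for Gata2, 1.31-fold, with an adjusted p of 1.23e-07. That test calls 20.4% of all 19209 genes tested, 9.68% higher and 10.7% lower in replicate 1, so 2 of 9 called in either direction is near the background share. Its p covers counting error only, while counts varied between the libraries by more, with an estimated common coefficient of variation of 9.02%.

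With that variation included, no member passed. The edgeR exact test with a common dispersion gave an adjusted p of 0.281 for Gata3 and 0.734 for Gata2, and called 0 of 9 factors. It called 1.57% of all genes tested, 0.625% higher and 0.942% lower in replicate 1. At an unadjusted p under 0.05, the edgeR exact test picked 2 of the 9 factors, Gata3 (p = 0.00854) and Gata2 (p = 0.0479), beside 1285 genes or 6.69% of all tested. The difference in Gata3 and Gata2 thus exceeded counting error but not the adjusted threshold once spread between libraries was allowed for.

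The other 7 factors had log2 ratios of -0.24 for Vsx1, -0.21 for both En1 and Evx2, -0.09 for Tal1, -0.08 for Sim1 and 0.02 for both Evx1 and Tal2. Their adjusted p by the exact binomial test lay between 0.228 for En1 and 1 for Tal2. Over the 9 factors, 4 were higher and 5 lower in replicate 1, with a median log2 ratio of -0.08 against 0.0019 over all genes tested. Scaling by the spike-in totals moves every ratio up by 0.37, and the ratios of Evx2, En1, Vsx1, Tal1 and Sim1 then turn positive.

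**Figure D2:**
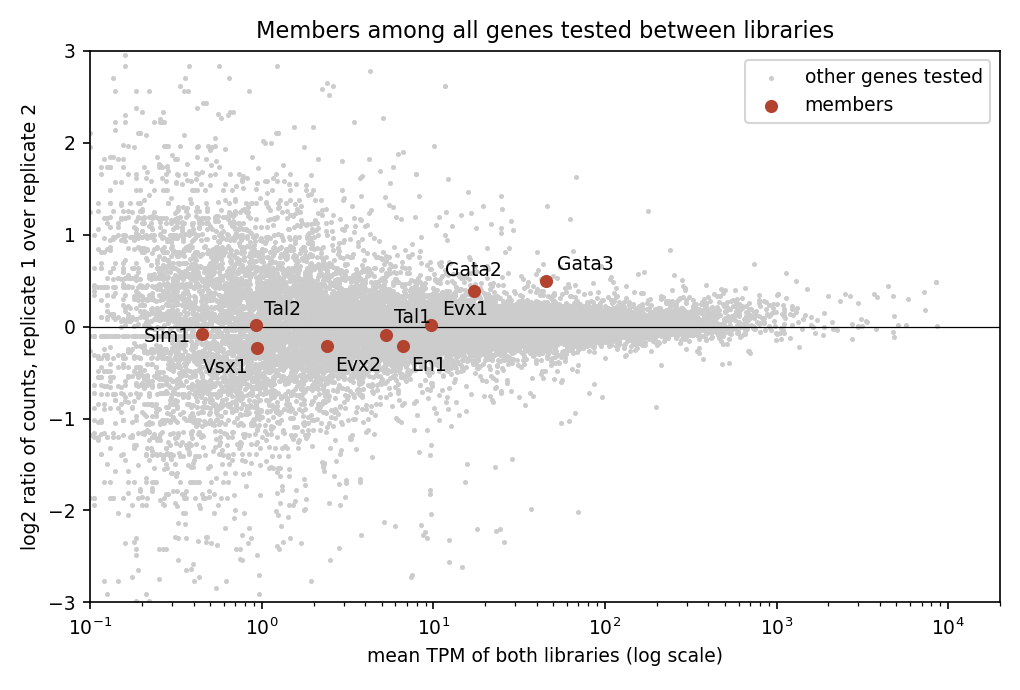
Log2 ratio of counts, replicate 1 over replicate 2, against mean TPM of both libraries on a log axis; grey points are 19047 other genes tested, with 153 more outside the axes, and red points the 9 factors. Gata3 and Gata2 lie above 0, at 0.50 and 0.39, and the other 7 lie within 0.24 of 0.

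Markers of other tissues in which GATA genes act were compared over the same libraries. The 5 inner ear markers were all higher in replicate 1, with a median log2 ratio of 1.55, and all 5 passed both tests. Oc90, an otolith protein of the inner ear and the highest of them, had 247.18 TPM in replicate 1 and 106.60 TPM in replicate 2. The next 3 by level, the otic matrix proteins Otol1, Tecta and Otog, had 3.25, 1.46 and 1.17 TPM in replicate 1 against 0.72, 0.76 and 0.38 TPM in replicate 2. These markers moved in the direction of Gata3 and Gata2, and their part in the difference of the pair was not tested.

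The 12 erythroid markers were higher in replicate 1 by a median log2 ratio of 0.25, with 4 higher and 0 lower by the exact binomial test and 0 either way by the edgeR exact test. They summed to 10558.97 TPM in replicate 1 against 8214.25 TPM in replicate 2, mostly the embryonic globin Hbb-y with 8149.21 and 6361.61 TPM. The globins Hba-x and Hbb-bh1 followed, with 1701.17 and 644.55 TPM in replicate 1 against 1299.03 and 494.82 TPM in replicate 2, and the haem enzyme Alas2 had 41.42 and 36.26 TPM. Gata1, the GATA factor that defines the erythroid lineage, was near 1 TPM, as given above, far under Gata2 and Gata3. Among the 5 megakaryocyte markers, 1 was higher and 0 lower by the exact binomial test, with sums of 75.93 and 58.82 TPM. That gene was Pf4, with 55.53 and 39.44 TPM, and the other leading markers of the list were Gp1bb with 11.90 and 10.62 TPM, Itga2b with 5.84 and 6.91 TPM and Gp9 with 2.22 and 1.45 TPM. The part of blood in the levels of Gata2, Gata3 and Tal1 was not tested.

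Tal1 (log2 ratio -0.09) did not share the direction of the blood lists. The 8 endothelial markers summed to 148.21 and 155.67 TPM, with 1 higher and 1 lower in replicate 1 by the exact binomial test. Cldn5, a junction protein, led them with 24.53 and 28.39 TPM, followed by Esam (25.77 and 26.39), the VEGF receptor Kdr (25.37 and 25.75) and Pecam1 (18.17 and 17.41). The 6 serotonin neuron markers summed to 38.10 and 39.85 TPM, with single genes going both ways, and the vesicular transporter Slc18a2 was the highest with 14.27 and 13.87 TPM. Ddc (6.81 and 10.01), the serotonin neuron factor Fev (6.26 and 5.65) and Lmx1b (4.09 and 4.51) came next, and 1 of the 6 genes, Ddc, was called, lower in replicate 1, by the exact binomial test. Tph2, the serotonin synthesis enzyme, chosen after its values were seen, had 3.13 and 2.28 TPM, a log2 ratio of 0.47, and neither test called it. Slc6a4, the remaining marker of the list, had 3.54 and 3.53 TPM, a log2 ratio of 0.03. The median log2 ratio of the 6 markers was 0.04. The part of serotonin neurons in the levels of Gata2 and Gata3 was not tested.

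Of the isthmus and midbrain markers, relevant to En1 and Tal2, 0 of 8 were higher and 2 lower in replicate 1 by the exact binomial test, and 0 by the edgeR exact test. They summed to 66.41 TPM in replicate 1 against 79.86 TPM in replicate 2, with Pax8 (22.14 and 31.37), Otx2 (12.48 and 15.76), Barhl1 (7.36 and 7.97) and Fgf17 (7.20 and 7.45) highest. Bulk tissue does not show which cells expressed these genes, so the sum does not measure isthmus or midbrain tissue. En1 was not called, and the part of such tissue in its level was not tested. Forebrain markers included 2 higher and 2 lower of 6 by the exact binomial test, and 1 each way by the edgeR exact test. Otp, which is also used in hindbrain, had 12.87 and 9.08 TPM, Dlx1 had 6.81 and 8.15 TPM, and Nkx2-1 had 0.10 and 1.41 TPM. Of the 6 surface epithelium markers, 1 was higher and 2 lower in replicate 1 by the exact binomial test, and 1 passed the edgeR exact test, Epcam with 32.97 and 16.43 TPM, beside the keratins Krt5 (11.55 and 13.42), Krt15 (8.56 and 14.00) and Krt14 (10.10 and 8.32). All 8 muscle markers were lower in replicate 1 by both tests, led by Actc1 with 27.35 and 111.87 TPM, Acta1 with 8.06 and 38.05, Myog with 6.38 and 29.65 and Tnnc2 with 4.02 and 25.29 TPM.

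**Figure D3:**
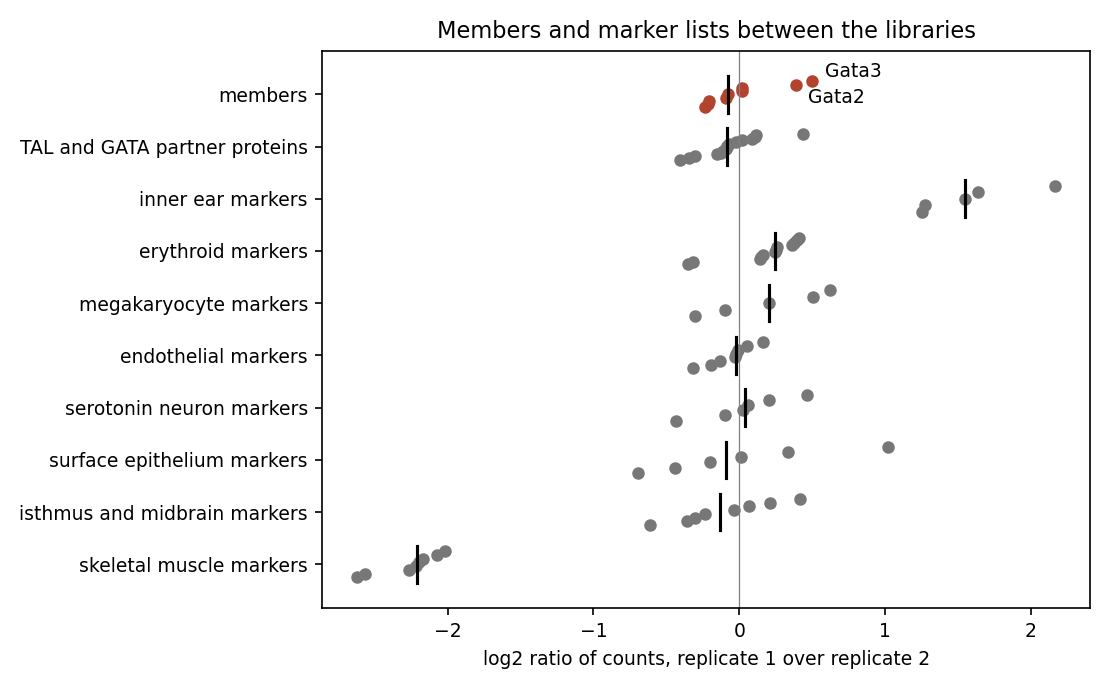
Log2 ratio of counts, replicate 1 over replicate 2, for the 9 factors in red and the genes of 9 other lists in grey, with the median of each list as a black bar. Inner ear markers lie near 1.55 and muscle markers near -2.21, while the factors lie around -0.08 with Gata3 and Gata2 on the right.

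The transcript tables divide each gene among its annotated transcripts, and 4 of the 9 factors had counts on more than 1. For Gata2 these mark separate starts, since Gata2-202 begins upstream of Gata2-201, by 4443 bases in GENCODE M21. That annotation is not the one quantified, in which Gata2-201 has 3241 bases against 3571 in M21, so the distance in the quantified models may differ. Gata2-201 held 74.25% of Gata2 TPM in replicate 1 and 66.35% in replicate 2, and Gata2-202 held 25.75% and 33.65%. Between the libraries, Gata2-201 had 856.23 and 546.40 counts, a log2 ratio of 0.55, while Gata2-202 had 286.77 and 267.60 counts, a log2 ratio of 0.00. The higher Gata2 count of replicate 1 thus lay with Gata2-201, at 14.37 TPM against 9.94 TPM in replicate 2, beside 4.98 and 5.04 TPM for Gata2-202. Fisher's exact test on the rounded counts of leading and other transcripts gave an adjusted p of 0.00083, and it called 35.8% of all 11102 genes with several counted transcripts. It covers counting error only, and the division of shared fragments between the transcripts adds error that the test leaves out.

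The promoters of both Gata2 starts are shown because the difference in Gata2 lay with 1 of them as the deposited tables divide the counts. Sequences are those of RefSeq on GRCm38.p6, 250 bases before to 50 after each start, read 5′ to 3′ on the strand of the gene. The distal start is chr6:88193641-88193940 (plus strand), and the proximal one is chr6:88198414-88198713 (plus strand), whose start site lies 330 bases inside Gata2-201 as GENCODE M21 draws it. In these and the later promoters, capitals mark a GATA motif (the letters AGATAA or the letters AGATAG, or either with T as the first letter, on both strands), and neither Gata2 window has any.
Gata2, distal start: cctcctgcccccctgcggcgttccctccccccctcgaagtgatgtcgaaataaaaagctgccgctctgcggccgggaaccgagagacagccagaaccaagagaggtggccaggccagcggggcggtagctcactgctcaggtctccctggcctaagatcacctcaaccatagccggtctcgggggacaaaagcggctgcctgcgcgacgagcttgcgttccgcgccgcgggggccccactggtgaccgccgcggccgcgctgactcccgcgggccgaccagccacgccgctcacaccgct
Gata2, proximal start: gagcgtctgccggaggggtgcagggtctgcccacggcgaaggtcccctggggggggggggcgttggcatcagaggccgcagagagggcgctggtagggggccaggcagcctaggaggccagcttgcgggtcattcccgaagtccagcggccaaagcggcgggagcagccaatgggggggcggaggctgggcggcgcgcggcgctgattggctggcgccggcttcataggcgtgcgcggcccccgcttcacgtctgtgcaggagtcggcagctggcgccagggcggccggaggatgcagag
Both are rich in G and C, at 69.3% for the distal and 73.7% for the proximal window, with 32 and 29 CpG dinucleotides. The medians over 32851 RefSeq promoters were 52.67% and 7.

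Gata3 was carried by Gata3-201 in both libraries, with 98.5% of its counts in replicate 1 and 97.9% in replicate 2. By TPM the share of Gata3-201 was 85.70% and 80.51%, because the 344-base noncoding Gata3-204 took 12.85% and 16.99% from only 30.84 and 28.44 counts. Gata3-201 alone had 44.27 TPM in replicate 1 and 31.45 TPM in replicate 2, and the difference in its share of counts did not pass Fisher's exact test (adjusted p = 0.334). For Tal1, Tal1-201 held 70.41% and 63.04% of TPM and Tal1-204 held 29.59% and 30.38%, while Tal1-202 held 0% and 6.58% from 0 and 3.78 counts (adjusted p = 0.49, Fisher's exact test). For Evx1, Evx1-201 held all TPM in replicate 1 and 88.50% in replicate 2, where Evx1-202 had 19.02 counts against 0 (adjusted p = 5.65e-06, Fisher's exact test). En1, Evx2, Sim1, Tal2 and Vsx1 had counts on 1 transcript each.

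**Figure D4:**
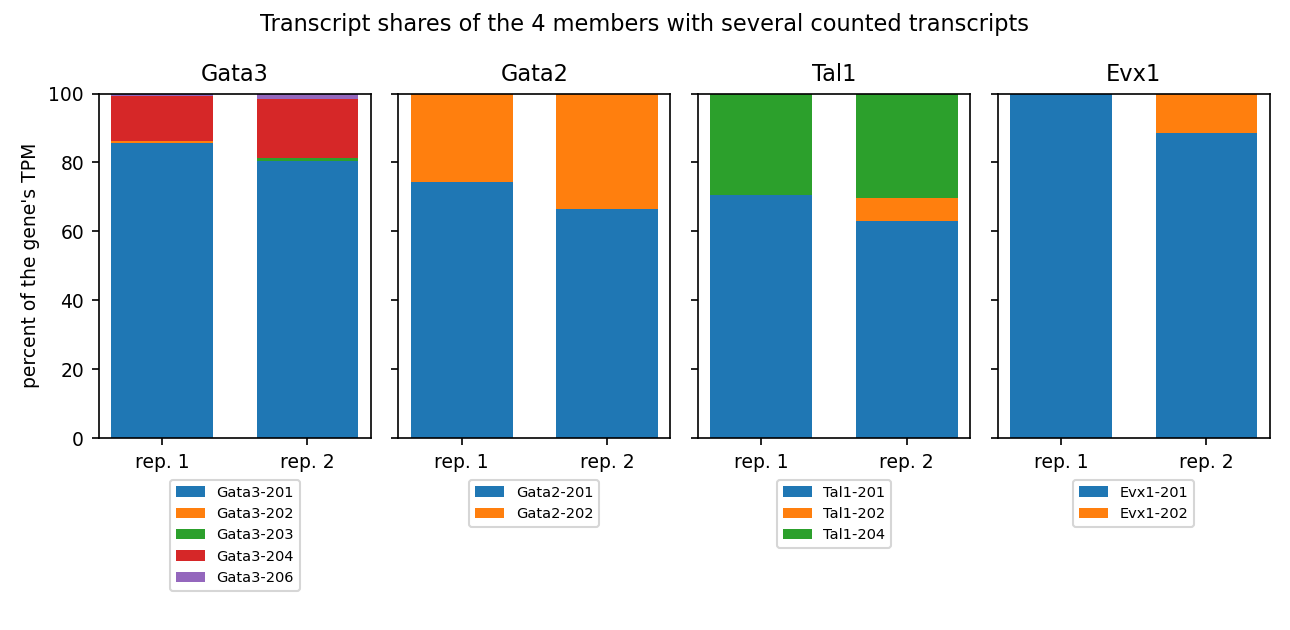
Percent of each gene's TPM held by its annotated transcripts in replicate 1 (left bar) and replicate 2 (right bar) for the 4 factors with several counted transcripts. The leading transcript of Gata2 takes 74.25% against 66.35%, and that of Evx1 takes 100% against 88.50%.

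The promoters of Tal1 and Gata3 are shown as those of TAL and GATA genes that carry a GATA motif near the start. The Tal1 window is that of Tal1-201, chr4:115056176-115056475 (plus strand), with the motif 205 bases before the start. The Gata3 window is that of Gata3-201, chr2:9878551-9878850 (minus strand), with the motif 36 bases after the start.
Tal1, start of Tal1-201: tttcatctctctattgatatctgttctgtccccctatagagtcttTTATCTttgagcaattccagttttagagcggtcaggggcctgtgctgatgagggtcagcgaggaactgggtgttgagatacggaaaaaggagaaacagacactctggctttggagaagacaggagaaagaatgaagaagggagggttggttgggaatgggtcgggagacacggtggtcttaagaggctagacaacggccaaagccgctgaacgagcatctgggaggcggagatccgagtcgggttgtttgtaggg
Gata3, start of Gata3-201: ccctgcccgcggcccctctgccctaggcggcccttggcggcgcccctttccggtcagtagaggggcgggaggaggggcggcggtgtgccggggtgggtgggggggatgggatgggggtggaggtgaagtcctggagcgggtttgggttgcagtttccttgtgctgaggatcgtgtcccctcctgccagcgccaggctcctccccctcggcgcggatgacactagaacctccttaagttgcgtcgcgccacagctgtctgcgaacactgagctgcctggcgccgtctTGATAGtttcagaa
RefSeq gave 11 promoters for the 9 factors, and a GATA motif stood in 3 of them, the third being that of Evx2, against 29.8% of all promoters. An E-box (CANNTG, which reads the same on both strands) stood in 8 of 11, against 72.3%. Its form CAGATG or CATCTG, which the E-box count includes, stood in 2 of 11, those of Tal1-201 and Sim1, against 17.2%. The homeodomain core TAATTA stood in 0 of 11, against 5.29%. The content of G and C ran from 44.3% for Evx2 to 73.7% for the proximal Gata2 start. CpG counts ran from 5 for Vsx1 to 32 for the distal Gata2 start, and Vsx1 alone lay under the median of 7.

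Evx1 and Evx2 lie at the ends of the HoxA and HoxD clusters next to the most posterior Hox genes, which were silent or nearly so here. Hoxa13, the nearest protein-coding gene to Evx1 on the side of lower coordinates at a gap of 52617 bases, had 0 counts in both libraries, and the limit that a count of 0 allows, set at 3 counts, is 0.154 TPM for replicate 1 and 0.166 TPM for replicate 2. Hoxd13, at 8752 bases from Evx2, had 2 counts in each library (0.04 and 0.05 TPM), and Hoxa11, Hoxa10, Hoxd12 and Hoxd11 had 0 counts in both. On their other sides, Evx1 neighbours Hibadh with 50.99 and 52.48 TPM, and Evx2 neighbours Lnpk with 47.01 and 49.36 TPM. The Evx genes were thus measured between Hox genes that were silent or nearly so and neighbours with higher TPM than the Evx genes.

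Evx1os, an antisense transcript whose span crosses the start of Evx1, had 16.18 TPM in replicate 1 and 14.68 TPM in replicate 2, above Evx1 in both libraries. The genes overlap over 1335 bases, of which 73 are exonic in both, 2.54% of Evx1-201. The sources used here do not say whether strand was kept, so strand may not separate reads in those bases. Both genes had whole expected counts, 701 and 622 for Evx1os, so neither total shows divided fragments. Gata3 overlaps Gm13256 (0.25 and 0.14 TPM), which shares 155 exon bases or 4.82% of Gata3-201. It also overlaps 4930412O13Rik (2.33 and 0.86 TPM) and 9230102O04Rik (2.86 and 3.08 TPM), which share 0 bases with Gata3-201. The log2 ratio of 4930412O13Rik was 1.10, from 25.64 and 10.79 counts, with an adjusted p of 0.682 by the edgeR exact test. These counts are fractional, as are the 27.36 and 25.21 counts of 9230102O04Rik, so the ratio depends on how shared fragments were divided.

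The remaining nearest protein-coding genes were read at 10 TPM or more in some cases and not at all in others. Tal1 lies between Stil, a centriole gene, with 9.88 and 10.21 TPM and Pdzk1ip1 with 10.79 and 12.38 TPM, both above Tal1. On the side of higher coordinates, Tal2 neighbours Tmem38b with 5.60 and 6.46 TPM. Gata2 lies between Rpn1 with 135.29 and 134.96 TPM and Dnajb8 with 0 counts, and Gata3 between Celf2 with 87.43 and 94.60 TPM and Taf3 with 14.13 and 14.25 TPM. En1 lies between Marco with 0 counts and Insig2 with 23.26 and 23.27 TPM, Vsx1 between Acss1 with 23.17 and 26.25 TPM and Entpd6 with 31.49 and 30.94 TPM, and Sim1 between Ascc3 with 13.83 and 14.58 TPM and Gm49339 with 0.78 and 0.93 TPM. Beside the overlapping genes above, the nearest protein-coding genes of Gata2 and Gata3 that were tested had log2 ratios of 0.02 for Rpn1, 0.00 for Celf2 and -0.01 for Taf3.

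The progenitor factors that precede these neurons had a median of 9.965 TPM in replicate 1 and 11.86 TPM in replicate 2, with 10 of 12 detected. Irx3, a factor of intermediate and ventral progenitors, had 48.56 and 44.68 TPM, and Nkx6-1 had 16.36 and 15.71 TPM. Dbx1, which marks the p0 progenitors of V0 neurons, had 14.63 TPM in replicate 1 and 24.91 TPM in replicate 2. It was lower in replicate 1 by both tests, with a log2 ratio of -0.75 and an adjusted p of 0.0171 by the edgeR exact test, while Evx1 and Evx2 did not pass either test. Of the 12 genes, 1 was higher and 3 lower in replicate 1 by the exact binomial test, and 0 and 1 by the edgeR exact test.

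Among progenitor factors chosen after their values were seen, the p3 genes Nkx2-2 (2.95 and 2.37 TPM) and Nkx2-9 (0.95 and 0.44 TPM) were low, as was the V3 factor Sim1. Low levels were not particular to the p3 genes. Dbx2 (0.50 and 0.99 TPM), Olig2 (2.91 and 2.35 TPM) and Foxn4 were also far under the medians of the list. The p1 gene Prdm12 had 5.49 and 8.38 TPM and the p2 gene Foxn4, which precedes the V2 split, had 2.56 and 3.29 TPM. Foxn4 thus stood above Vsx1 and below Gata2 in both libraries.

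All 16 other factors of V0 to V3 neurons were detected, with medians of 8.71 and 7.375 TPM, against 4.88 and 5.63 TPM for the 9 factors. Uncx, listed here for V3, was the highest of them with 89.85 and 90.68 TPM, although Sim1 was the lowest of the 9 factors. Lhx1 (53.33 and 55.81) and Lhx5 (52.82 and 55.82), LIM factors of many interneuron classes, and Foxp2 (38.71 and 36.54), used in V1 cells, came next, and each is also expressed in other hindbrain neurons. Of the 16, 2 were higher and 2 lower in replicate 1 by the exact binomial test and 0 either way by the edgeR exact test. The 2 higher ones were Lhx3 (9.75 and 7.03 TPM) and Sox14 (14.91 and 12.42 TPM), and the 2 lower ones were Lhx1 and Sp8 (5.60 and 6.88 TPM). Lhx3, Sox14 and Sp8 were chosen after their values were seen.

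**Figure D5:**
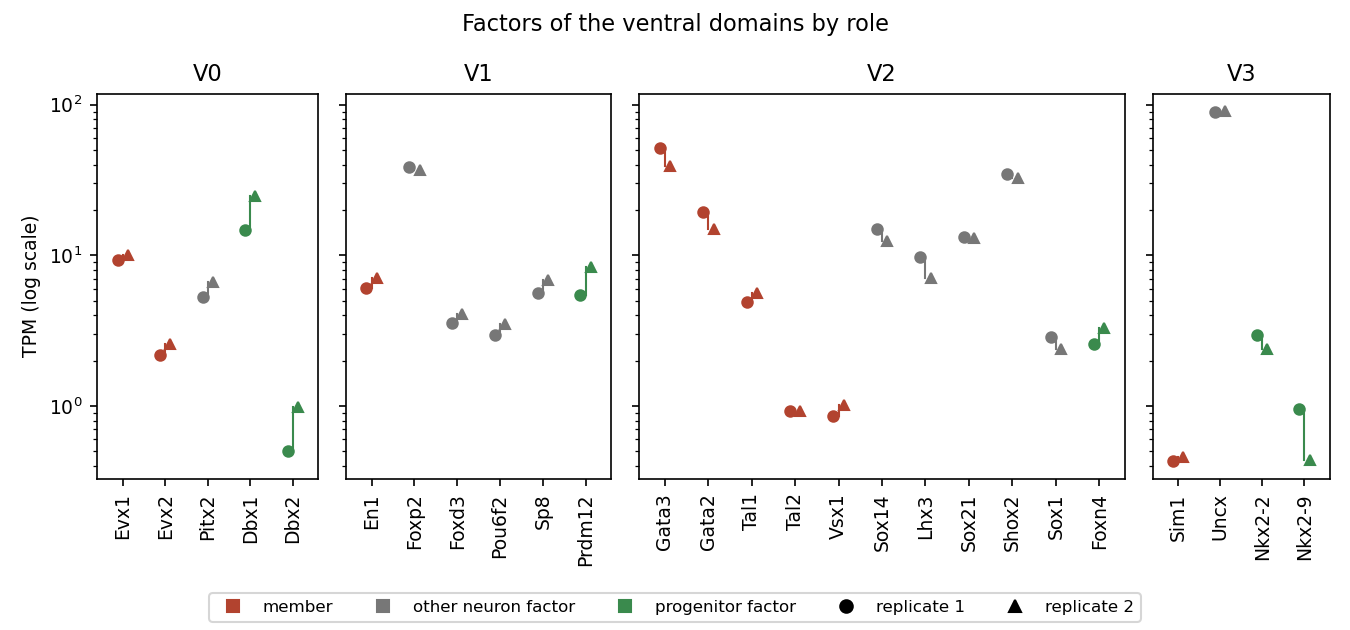
TPM on a log axis of the 9 factors (red), other neuron factors (grey) and progenitor factors (green), arranged by the domain they are listed for, with replicate 1 as circles and replicate 2 as triangles. Nkx2-9, Dbx2 and Dbx1 show the widest gaps between libraries, and Uncx lies far above Sim1.

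Proteins that work with TAL and GATA factors had levels on both sides of Gata3. All 16 were detected, with a median of 53.80 TPM in replicate 1 and 53.165 TPM in replicate 2. The adaptor Ssbp3 had 228.79 and 239.39 TPM, and the E proteins Tcf12, Tcf4 and Tcf3, with which TAL proteins pair to bind DNA, had 153.41, 140.32 and 146.77 TPM in replicate 1 against 164.53, 152.38 and 142.91 TPM in replicate 2. By the exact binomial test 2 were higher and 6 lower in replicate 1, and 0 either way by the edgeR exact test. Chosen after their values were seen, the bridging proteins Ldb1 (114.94 and 106.99), Lmo1 (28.85 and 30.99) and Lmo2 (20.87 and 21.99) lay above Tal1, with Lmo1 and Lmo2 below Gata3. The GATA cofactors Zfpm2 (5.97 and 8.01) and Zfpm1 (2.67 and 2.00), chosen likewise, lay below Gata2.

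Transmitter genes that ventral interneurons use once they mature were all present. Gad2, an enzyme of GABA synthesis, had 40.59 and 46.50 TPM, the glutamate transporter Slc17a6 had 31.63 and 35.38 TPM, Gad1 had 18.56 and 19.85 TPM, and the glycine transporter Slc6a5 had 5.90 and 7.27 TPM. Of the 6 genes, 0 were higher and 3 lower in replicate 1 by the exact binomial test, and 0 either way by the edgeR exact test. The 3 lower ones were Gad2, Slc17a6 and Slc6a5, and their relation to Gata2 and Gata3 was not tested.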

How the data were processed

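Per the labels, total RNA over 200 nt from pooled hindbrains was made into libraries from 10 ng. The authors deposited gene and transcript tables on mm10 with GENCODE M4 identifiers. The sources used here do not name the aligner, the quantifier or the strandedness. Per the file headers, the deposited expected counts are estimated fragments per gene, the deposited TPM values are abundances scaled for length and library total, the deposited FPKM values are fragments scaled for length and depth, and the deposited percent values are each transcript's share of its gene.

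Symbols and coordinates came from GENCODE M21, matched on Ensembl identifiers, of which 884 were unmatched. Entries that are neither Ensembl genes nor spike-ins held 0.000107% and 0.000114% of counts in replicates 1 and 2 and stayed out of the tests. Spike-ins held 3.41% and 4.36% of counts and 8.39% and 10.9% of TPM in replicates 1 and 2. The TPM values given include spike-ins in their total. Expected counts were rounded and genes with 10 or more summed counts were scaled by TMM factors (0.99969 and 1.00031; edgeR 4.0.16, R 4.3.3). The two-sided exact binomial test (scipy 1.17.1) was adjusted by Benjamini-Hochberg over all genes tested, with a threshold of 0.05, and the exact test of edgeR, on a common dispersion from an intercept-only fit, was the alternative. The dispersion came from the same 2 libraries. The scripts were tested on simulated data. The p-values compare these libraries only, and intervals cover counting error only.

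Named were all members, the 4 genes of highest mean TPM of each list, all family and Hox neighbours, overlapping genes and nearest protein-coding genes. Some genes that this rule names are not reported here. The members, lists and tests were chosen with earlier results of these data known.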

Additional observations from a re-analysis of the deposited data

How the results depend on the processing

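The number of factors that differed between the libraries was 2 under the exact binomial test, 0 under the edgeR exact test with common dispersion and 4 with spike-in totals as library size. Under spike-in totals Evx1 (adjusted p = 7.84e-05, exact binomial test) and Tal1 (0.0201) joined Gata3 and Gata2, and the log2 ratios became 0.15 for Evx2, 0.16 for En1, 0.13 for Vsx1, 0.28 for Tal1 and 0.29 for Sim1, all negative under TMM. That scaling adds 0.37 to every ratio by construction. The other scalings and filters on low counts left the number at 2. The log2 ratio of Gata3 over Gata2 was 1.35 with log2(TPM + 1) and 1.45 with posterior mean TPM, and it was 1.38 to 1.42 when either replicate was left out. With log2(TPM + 1), Tal1 over Tal2 was 1.70 and Evx1 over Evx2 was 1.67, and leaving out either replicate gave 2.41 to 2.61 and 1.98 to 2.10. The pseudocount lowers ratios of genes near 1 TPM by construction. The number of factors detected was 6 to 7 when either replicate was left out, 8 at 0.5 TPM, 6 at 2 TPM and 9 at 10 or more counts. With TPM over Ensembl genes only, the means of Tal2 and Vsx1 rose to 1.02 and 1.04 TPM, past the 1 TPM threshold. The number detected was not counted on that scale. Counting the leading transcript alone lowered the mean of Gata3 to 37.9 TPM, Gata2 to 12.2, Evx1 to 9.15 and Tal1 to 3.50. That alternative was chosen after seeing the data. No paired analysis was possible because both libraries belong to 1 group. Depth limits Vsx1, Tal2 and Sim1, whose counts were 46 to 66 a library.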
